A study of Mus musculus with 8 samples.

Results

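The 9 genes described here, Tat, Hpd, Hgd, Fah, Tdo2, Afmid, Kmo, Kynu and Haao, encode liver enzymes that break down tyrosine and tryptophan. They were chosen by name, with earlier results of these data known. Each matched 1 probe in the platform's probe-to-gene table, so that they make up 9 of the 19321 genes that this table names on the array. Transcript levels were read on 8 arrays of mouse liver in 3 groups: tumour tissue of high fat diet livers (mice 117, 186 and 1), non-tumour tissue of those same 3 livers, and livers of normal diet mice (117 and 120). Every mouse, normal diet ones included, had been given the carcinogen DMBA (dimethylbenzanthracene) at an age of 4 to 5 days and was then kept on its diet for 30 weeks. The number 117 occurs under both diets and stands for different animals. Strain and sex are not given in the sources used here, and no mice without DMBA are among the groups. Each array measured 1 piece of tissue, and nothing in the labels says that animals were pooled.

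Tyrosine, which liver makes from phenylalanine, is broken down in the cytosol of hepatocytes in a chain of steps. Tat, tyrosine aminotransferase, removes the amino group and gives hydroxyphenylpyruvate. Hpd, hydroxyphenylpyruvate dioxygenase, turns that product into homogentisate, which Hgd, homogentisate dioxygenase, opens to maleylacetoacetate. Fah, fumarylacetoacetate hydrolase, ends the chain with fumarate and acetoacetate. Tryptophan is opened by Tdo2, tryptophan dioxygenase, and Afmid, arylformamidase, releases kynurenine. Kmo, kynurenine monooxygenase, Kynu, kynureninase, and Haao, hydroxyanthranilate dioxygenase, then lead towards quinolinate, from which liver can make NAD. In people, loss of FAH, HPD, TAT or HGD causes inherited disorders of tyrosine breakdown, and Tat and Tdo2 are textbook examples of liver genes induced by glucocorticoids.

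Promoter sequence is shown for the 2 members with the deepest falls in tumours, Hpd and Hgd, and for the 2 whose difference between tumour and non-tumour tissue did not pass the test, Tat and Tdo2. The sequences are the 250 bases before one annotated start of each gene, read 5′ to 3′ on the gene's strand from the RefSeq promoter table for GRCm38.p6, where 8 of the 9 members matched (Kynu did not). Capitals mark matches on either strand to 6 short motifs. One core promoter element searched was the TATA box, with the letters TATAAA. The other core element searched was the box with the letters CCAAT. The half-site of the glucocorticoid receptor was searched as TGTTCT, that of the liver factor HNF1 as GTTAAT and that of HNF4 as CAAAGTC. Sites of forkhead factors were searched as TGTTTAC.
Hpd, chr5:123182724-123182973, minus strand:
Hpd: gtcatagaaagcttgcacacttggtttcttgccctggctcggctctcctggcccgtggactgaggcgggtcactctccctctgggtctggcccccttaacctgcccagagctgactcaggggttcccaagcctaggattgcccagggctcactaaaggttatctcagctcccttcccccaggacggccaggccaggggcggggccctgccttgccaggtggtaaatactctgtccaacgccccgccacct
Hgd, chr16:37579903-37580152, plus strand:
Hgd: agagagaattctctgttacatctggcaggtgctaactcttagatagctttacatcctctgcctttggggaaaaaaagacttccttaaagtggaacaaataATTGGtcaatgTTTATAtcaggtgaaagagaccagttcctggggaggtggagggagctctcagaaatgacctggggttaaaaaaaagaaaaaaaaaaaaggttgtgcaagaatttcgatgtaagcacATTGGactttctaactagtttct
Tat, chr8:109990186-109990435, plus strand:
Tat: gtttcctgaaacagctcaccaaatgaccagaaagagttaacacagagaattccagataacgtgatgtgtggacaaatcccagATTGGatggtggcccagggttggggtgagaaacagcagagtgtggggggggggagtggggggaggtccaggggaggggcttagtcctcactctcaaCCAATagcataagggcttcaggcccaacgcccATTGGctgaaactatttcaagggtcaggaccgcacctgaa
Tdo2, chr3:81975729-81975978, minus strand:
Tdo2: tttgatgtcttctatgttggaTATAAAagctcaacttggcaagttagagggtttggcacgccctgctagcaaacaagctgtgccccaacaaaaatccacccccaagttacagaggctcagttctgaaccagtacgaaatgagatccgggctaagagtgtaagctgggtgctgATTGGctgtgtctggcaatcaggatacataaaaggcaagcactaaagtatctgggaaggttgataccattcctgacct
The Hpd window held none of the 6 motifs. CCAAT was found in 3 of the 8 members' windows (Tat, Hgd and Tdo2), against 33.8% of 32851 promoter windows of the same length. TATAAA was found in 2 of 8 (Hgd and Tdo2), against 12.4% of all windows. These matches lay at -139 (Hgd, opposite strand) and -229 (Tdo2) from the annotated start, so they are not shown to be working TATA boxes. The glucocorticoid receptor half-site was in the Haao window alone, against 16.1% of all windows, the HNF1 half-site in the Haao window alone (6.43% of all), the HNF4 half-site in the Kmo window alone (3.84% of all) and the forkhead site in no member's window (3.17% of all). No 2 matches overlapped, and a match is a match of letters only.

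Levels below are the intensities the authors deposited, a linear scale on which the median listed probe of an array stands at 25, so levels of different genes cannot be set against each other. Between 81.8% and 88.5% of probes were listed per array, and all 9 members were listed on all 8. Differences are log2 values ± SE from limma, fitted over all 8 arrays to the background-corrected and quantile-normalized scanner signal of 16800 genes, and a gene rose or fell where its adjusted p (Benjamini-Hochberg over all genes) was below 0.05. All 3 comparisons share arrays. The arrays correlated at 0.984 to 0.996 within groups and at 0.919 to 0.983 between groups. The tumour array of mouse 1 had the lowest correlations of its kind, at 0.984 and 0.989 with the other tumours and at 0.919 to 0.944 with the arrays of the other groups. Without it 7 of the 9 members were lower in tumours than in non-tumour tissue (1843 of all genes) and 9 of the 9 lower than in normal diet liver (2224 of all genes). The hepatocyte genes Alb, Ttr and Apoa1 were bright on every array (22262 to 56458), and they are defining markers of hepatocytes. Of 9 hepatocyte markers, 4 rose and 2 fell in tumours relative to non-tumour tissue (12% and 13.4% of all genes). Alb, Ttr and Apoa1 thus do not stand for all of them.

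In tumours 7 of the 9 genes fell and none rose relative to non-tumour tissue of the same livers. Of all genes tested 25.4% were called, 13.4% lower and 12% higher. All 9 log2 differences were below 0, with a median of -1.24 against -0.01 over all genes, and 8 of the 9 lay among the lowest 5% of the 16800 genes. As the 9 were chosen with earlier results of these data known, setting them against all genes is a description only. The tumour mean of the deposited intensity stood at 10.8% (Hpd) to 57.4% (Kmo) of the non-tumour mean. The log2 values of tumours lay below all of those of non-tumour tissue for 8 of the 9 genes, the exception being Tat, and for 22.3% of all genes. In bulk tissue, fewer cells of a type and less RNA per cell cannot be told apart. With the local background reading of each spot in place of the blank spots, 0 of the 9 fell in limma and 32 of all genes did, while 1762 genes had an unadjusted p below 0.05. These local readings followed the signal of their own spots (rank correlation across probes 0.902 to 0.960 per array).

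Hpd had the deepest fall of the 9. It was at 821.6, 983.9 and 147.5 in tumours of mice 117, 186 and 1, against 5811.6, 5114.0 and 7139.8 in non-tumour tissue of the same mice. The groups were far apart, and the tumour of mouse 1 was lower than the other 2 tumours by a wide margin. The mean was 651.0 ± 443.5 in tumours and 6022 ± 1029 in non-tumour tissue (SD, n = 3 each), a log2 difference of -3.18 ± 0.68 (limma, adjusted p 0.0165) that ranked 4 from the lowest among 16800 genes. Without the tumour of mouse 1 the difference was -2.33. Blocking on mouse number ended the call (adjusted p 0.0613), and so did omission of the non-tumour array of mouse 117 (0.0511) or of mouse 1 (0.0556). Over all alternatives the adjusted p of Hpd lay between 0.000705 and 0.192.

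Hgd fell with the smallest adjusted p of the 9. Tumours of mice 117, 186 and 1 were at 703.0, 818.4 and 632.8, and non-tumour tissue at 3044.3, 2960.4 and 3867.9. The 3 tumours lay close together and well below every non-tumour array. The log2 difference was -1.88 ± 0.15 (limma, adjusted p 0.000666), and the tumour mean was 21.8% of the non-tumour mean. The probe for Hgd is annotated with a non-coding transcript of the gene, and which Hgd transcripts it reads was not tested. Fah, at the end of the chain, was at 1344.3, 1413.0 and 1295.4 in tumours and at 2353.3, 2282.0 and 2522.0 in non-tumour tissue. Its spread was small in both groups, and the fall was shallower than that of Hgd (-0.56 ± 0.07, adjusted p 0.00306).

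Tat, the first enzyme of the chain, was at 695.7, 1820.1 and 662.9 in tumours of mice 117, 186 and 1, against 2158.3, 3480.8 and 3442.9 in non-tumour tissue. The tumour of mouse 186 was higher than the other 2 tumours and came near the lowest non-tumour array, that of mouse 117, which it overlapped on the log2 scale. The log2 difference of -1.35 ± 0.42 did not pass the test (adjusted p 0.0625, 95% confidence interval -2.37 to -0.33). Without the tumour of mouse 186 it was -1.83 and passed (adjusted p 0.00419). It passed as well with the blank mean subtracted (0.0377), an offset of 16 (0.0382), scaling to a common median (0.0244) and the deposited values (0.00812), in a range of 0.00419 to 0.708.

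**Figure D1:**
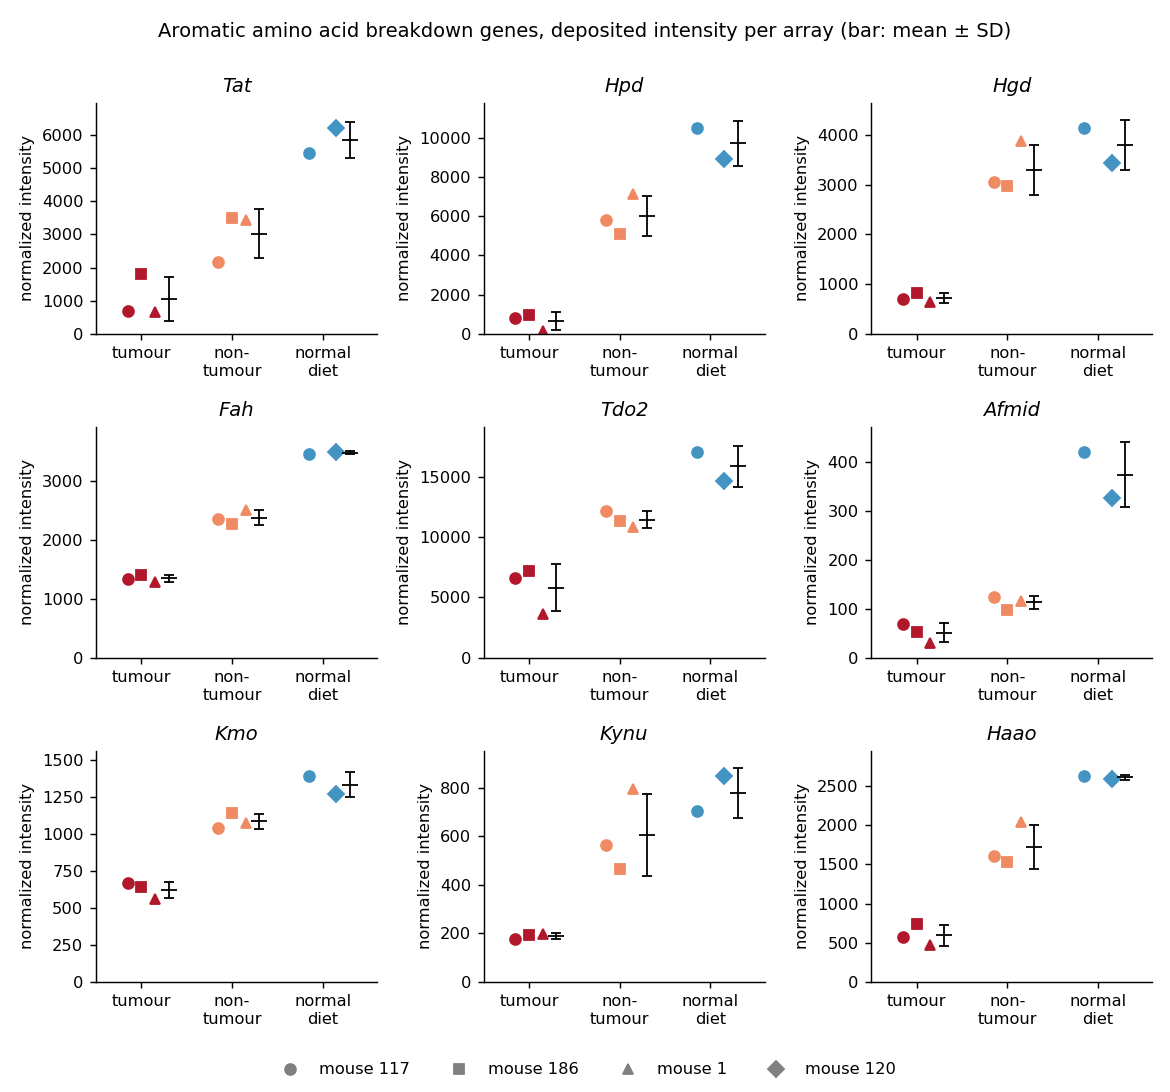
Deposited normalized intensity (vertical axis, linear, from 0) of each of the 9 genes in tumour tissue, non-tumour tissue and normal diet liver. Points are arrays, with the shape giving the mouse number (117 under normal diet is another animal), and bars are mean ± SD. Tumour points lie below all non-tumour points in every panel, and Afmid shows its widest gap between non-tumour tissue and normal diet liver.

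In the tryptophan branch 4 of 5 genes fell in tumours, against 13.4% of all genes tested. Tdo2, which did not pass, had a log2 difference close to that of Afmid, and no test set one member against another. Kynu was at 175.0, 191.3 and 198 in tumours of mice 117, 186 and 1, against 562.5, 464.4 and 793.9 in non-tumour tissue. The tumours were within a narrow band, while non-tumour tissue varied, with mouse 1 the highest. The log2 difference was -1.30 ± 0.15 (limma, adjusted p 0.00198). Haao was at 571.5, 739.7 and 464.9 in tumours and at 1605.9, 1525.5 and 2042.0 in non-tumour tissue. Its groups did not overlap, and its log2 difference of -1.24 ± 0.20 (adjusted p 0.00589) was close to that of Kynu.

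Kmo was at 665.4, 638.1 and 559.8 in tumours and at 1035.9, 1136.3 and 1073.6 in non-tumour tissue of mice 117, 186 and 1. This was the shallowest fall of the 9 in log2 terms (-0.49 ± 0.10, adjusted p 0.0152), with little spread in either group. Without non-tumour array 186 its adjusted p was 0.0510, the alternatives spanning 0.00200 to 0.871. Afmid was dim, at 69.1, 53.4 and 30.9 in tumours against 124.5, 98 and 117.1 in non-tumour tissue, without overlap. Its log2 difference was -0.70 ± 0.18 (adjusted p 0.0311), a value that the fixed offset of 50 makes smaller for a dim probe. Omission of the non-tumour array of mouse 117 (0.0947), 186 (0.0628) or 1 (0.0823), or of the tumour array of mouse 186 (0.0685), ended the call, the alternatives spanning 0.00844 to 0.0947.

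Tdo2, which commits tryptophan to this route, was at 6650.6, 7187.5 and 3607.8 in tumours of mice 117, 186 and 1, against 12175.2, 11369.1 and 10846.0 in non-tumour tissue. All 3 tumours were below all non-tumour arrays, with mouse 1 the lowest. The mean was 5815 ± 1931 in tumours and 11463 ± 670 in non-tumour tissue (SD, n = 3 each). The log2 difference was -0.71 ± 0.33 and did not pass the test (limma, adjusted p 0.170, 95% confidence interval -1.49 to 0.07). With scaling to a common median it passed (adjusted p 0.0362), as it did with the deposited values (-1.04, adjusted p 0.0107). With the local background it was 0.21 (adjusted p 0.959), the highest of its range of 0.0107 to 0.959.

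Within each of the 3 livers all 9 genes were lower in the tumour than in its own non-tumour tissue. The log2 difference had a median over the 9 genes of -1.17 in mouse 117, -0.65 in mouse 186 and -1.63 in mouse 1. Mouse 1 had the deepest difference for 9 of 9 genes, against 58.8% of the 2259 genes called lower and 35.2% of all genes tested. Mouse 186 had the shallowest for 7 of the 9, and mouse 117 for Afmid and Kmo. Hpd showed the widest span, with log2 differences of -2.47, -2.01 and -5.06 in mice 117, 186 and 1. Fah showed a narrow one, with -0.56, -0.40 and -0.72.

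**Figure D2:**
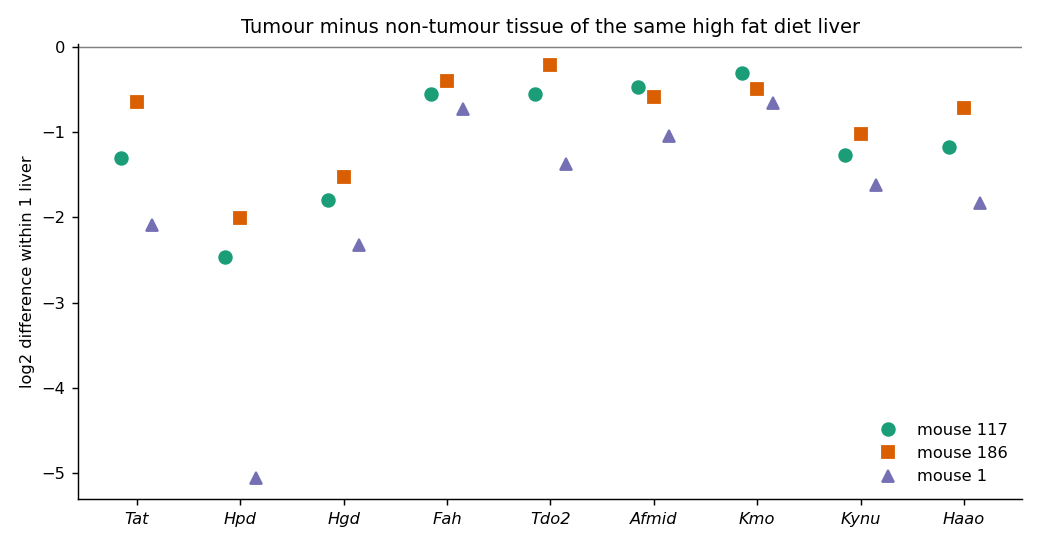
Log2 difference between tumour and non-tumour tissue of the same liver (vertical axis) for the 9 genes, 1 point per mouse. Every point lies below 0, and the triangle of mouse 1 is the lowest for each gene, reaching -5.06 for Hpd.

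Between the diets, 1 of the 9 genes differed: Afmid fell in non-tumour tissue of high fat diet livers relative to normal diet liver. In this comparison 3.83% of all genes were called, 2.02% lower and 1.81% higher. The non-tumour tissue came from livers that bore tumours, so diet and growth beside a tumour cannot be told apart. Afmid was at 124.5, 98 and 117.1 in non-tumour tissue, against 422.3 and 327.6 in normal diet livers 117 and 120. The groups were far apart, and the non-tumour mean was 30.2% of the normal diet mean. The log2 difference was -1.23 ± 0.20 (limma, adjusted p 0.0289) and ranked 41 from the lowest among 16800 genes. Omission of the normal diet array of mouse 117 (0.176) or 120 (0.119), or of the non-tumour array of mouse 117 (0.0716), 186 (0.0871) or 1 (0.0751), ended the call. So did the local background, with a difference of -0.65 (adjusted p 0.433), the alternatives spanning 0.0122 to 0.433.

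The other 8 genes did not pass between the diets, although the deposited means of all 8 were lower in non-tumour tissue, at 51.8% (Tat) to 86.9% (Hgd) of the normal diet mean. The log2 values of 6 of the 9 genes did not overlap between non-tumour tissue and normal diet liver, lower in each case, against 23% of all genes. Tat was at 2158.3, 3480.8 and 3442.9 in non-tumour tissue, against 5462.6 and 6223.1 in normal diet livers. The 2 groups were apart, but the interval of the log2 difference was wide (-0.73 ± 0.47, adjusted p 0.461, 95% confidence interval -1.87 to 0.41). Hpd was at 5811.6, 5114.0 and 7139.8 in non-tumour tissue and at 10514.9 and 8900.0 in normal diet livers (-0.49 ± 0.76, adjusted p 0.787).

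Fah was at 2353.3, 2282.0 and 2522.0 in non-tumour tissue, against 3468.5 and 3507.3 in normal diet livers. Both groups were tight and did not overlap. The log2 difference of -0.25 ± 0.08 did not pass (limma, adjusted p 0.165), but it passed with the 2 compared groups alone (adjusted p 0.0252) and without the tumour array of mouse 1 (0.0346), in a range of 0.0252 to 0.999. Haao was at 1605.9, 1525.5 and 2042.0 in non-tumour tissue and at 2636.6 and 2592.2 in normal diet livers (-0.32 ± 0.22, adjusted p 0.499). Tdo2 stood at 72.1% of the normal diet mean (-0.31 ± 0.36, adjusted p 0.701). Kmo stood at 81.3% (-0.08 ± 0.11, adjusted p 0.774) and Kynu at 78.1% (-0.19 ± 0.17, adjusted p 0.613). For Hgd the direction depended on the scale: the deposited mean in non-tumour tissue was 86.9% of that in normal diet liver, while the log2 difference after quantile normalization was 0.12 ± 0.17 (adjusted p 0.754). Hgd arrays of the 2 groups overlapped. The log2 difference also changed sign in 1 alternative each for Fah (range -0.55 to 0.12), Kmo (-0.30 to 0.14) and Kynu (-0.39 to 0.05).

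In tumours relative to normal diet liver 8 of the 9 genes fell, where 27.9% of all genes were called (15% lower and 12.9% higher), and all 9 had log2 values that did not overlap, against 31.8% of all genes. The median log2 difference of the 9 was -1.56, against -0.01 over all genes. Hpd was at 821.6, 983.9 and 147.5 in tumours and at 10514.9 and 8900.0 in normal diet livers, so that the tumour mean was 6.71% of the normal diet mean (-3.67 ± 0.76, limma, adjusted p 0.0140). Tat was at 695.7, 1820.1 and 662.9 in tumours, against 5462.6 and 6223.1 in normal diet livers, which is 18.1% by means (-2.08 ± 0.47, adjusted p 0.0203). Afmid was at 69.1, 53.4 and 30.9 in tumours, against 422.3 and 327.6 in normal diet livers (-1.94 ± 0.20, adjusted p 0.00128). It was the 1 member to pass with the local background as well (range of adjusted p 9.05e-05 to 0.0181).

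The other 5 genes that fell relative to normal diet liver were Hgd (-1.76 ± 0.17, adjusted p 0.000978), Fah (-0.81 ± 0.08, adjusted p 0.00124), Kmo (-0.57 ± 0.11, adjusted p 0.0129), Kynu (-1.49 ± 0.17, adjusted p 0.00171) and Haao (-1.56 ± 0.22, adjusted p 0.00365) in limma. Tdo2 was at 6650.6, 7187.5 and 3607.8 in tumours, against 17103.2 and 14674.7 in normal diet livers. Its groups were well apart, yet the log2 difference of -1.02 ± 0.36 did not pass (adjusted p 0.0823). Tdo2 passed with scaling to a common median (0.0356), with the deposited values (0.00221) and when the tumour array of mouse 186 (0.0415) or mouse 1 (0.0305) was omitted, the alternatives spanning 0.00221 to 0.870. With 1 normal diet array left out, Hpd (adjusted p 0.0855 without 117, 0.0723 without 120), Tat (0.0931 and 0.109) and Kmo (0.0895 and 0.0556) lost their calls. Tat also lost its call without tumour array 117 (0.0568), and both Tat (0.0568) and Hpd (0.0540) did with the 2 compared groups alone, in ranges of 0.000955 to 0.367 for Tat, 0.000435 to 0.133 for Hpd and 0.000488 to 0.783 for Kmo. The deposited values gave deeper falls for Hpd (-4.29), Hgd (-2.40), Afmid (-2.91) and Haao (-2.17). Without the tumour of mouse 1 the difference of Hpd was -2.82.

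**Figure D3:**
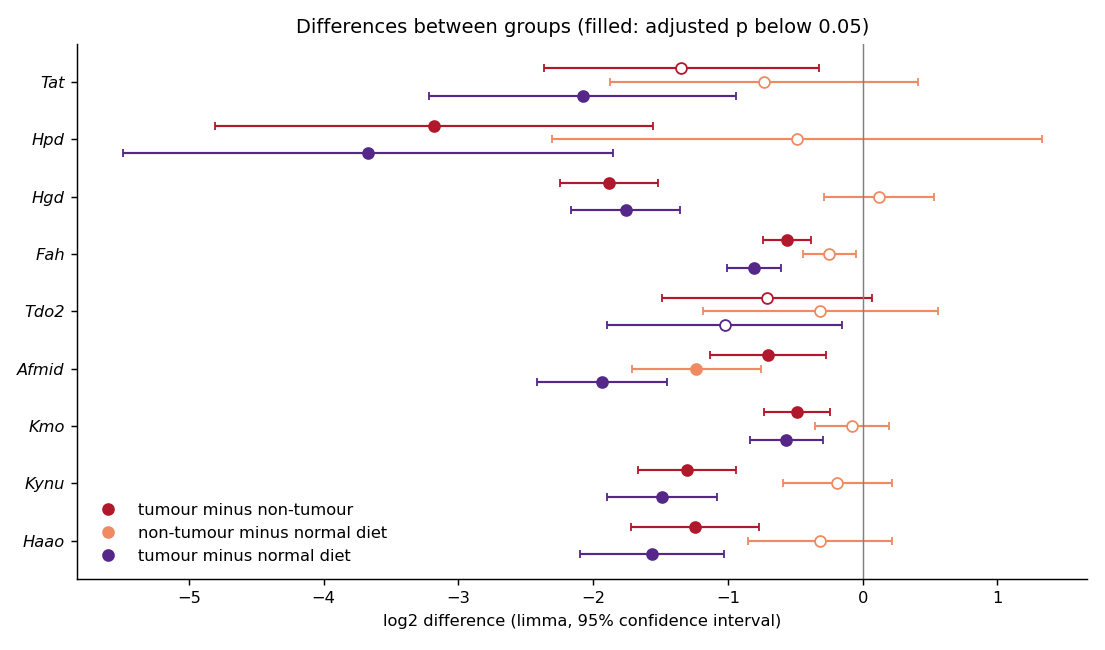
Log2 differences with 95% confidence intervals from limma (horizontal axis) for each of the 9 genes in the 3 comparisons. Filled points have an adjusted p below 0.05. Tumour comparisons lie below 0 for all 9 genes, while the interval of non-tumour minus normal diet reaches 0 for all but Fah and Afmid.

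The genes around these steps were read from lists of genes in or near the same pathways, not all of which encode enzymes of these routes. Of 18 other phenylalanine and tyrosine genes measured, 8 fell and none rose between tumour and non-tumour tissue, with a median log2 difference of -0.38. The shares over all genes tested were 13.4% lower and 12% higher. Gstz1, the isomerase between Hgd and Fah, fell to 1244 ± 137 in tumours, against 2580 ± 213 in non-tumour tissue (SD, n = 3 each, -0.79 ± 0.10, adjusted p 0.00293). Fahd2a, which is named after Fah for a shared domain, fell to 119.6 ± 17.0 in tumours, against 294.7 ± 20.4 in non-tumour tissue (-0.95 ± 0.11, adjusted p 0.00171). Got1, the cytosolic aspartate aminotransferase, fell to 487.8 ± 109.9 in tumours, against 1105 ± 191 in non-tumour tissue (-0.89 ± 0.21, adjusted p 0.0242). Ddc, the decarboxylase of aromatic amino acids, was at 74.8 ± 19.5 in tumours and 250.7 ± 79.9 in non-tumour tissue (-1.21 ± 0.23, adjusted p 0.0108). Between the diets 1 of these 18 genes passed the test, Pcbd1, against 3.83% of all genes tested. Pcbd1, which takes part in recycling tetrahydrobiopterin, was chosen after its value was seen (log2 difference 0.30, limma, adjusted p 0.0298). The deposited values of Pcbd1 overlapped, at 3288, 3257.3 and 3555.1 in non-tumour tissue against 3539.1 and 3151.7 in normal diet livers, so the difference was present after quantile normalization and not on the deposited scale.

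Of 19 other tryptophan, kynurenine and NAD genes tested, 10 fell and 1 rose in tumours, with a median of -0.43. The shares over all genes tested were 13.4% lower and 12% higher. Aadat and Kyat1 both encode enzymes that can convert kynurenine to kynurenic acid, and they moved in opposite directions. Aadat fell to 131.6, 168.5 and 88.1 in tumours of mice 117, 186 and 1, against 562.1, 634.2 and 601.1 in non-tumour tissue (-1.77 ± 0.19, limma, adjusted p 0.00160). Kyat1 rose to 557.6, 454.8 and 514.1 in tumours, against 253.5, 184.6 and 267.0 in non-tumour tissue (1.2 ± 0.13, adjusted p 0.00141). In normal diet livers Kyat1 was at 490.0 and 412.9, so its non-tumour level was the low one of the 3 groups. The difference of non-tumour tissue from normal diet liver was -0.68 ± 0.14 and did not pass (limma, adjusted p 0.0548). Kyat3, which catalyses the same reaction, was at 1315 ± 282 in tumours and 1271 ± 231 in non-tumour tissue (adjusted p 0.275).

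Gcdh, a glutaryl-CoA dehydrogenase further down the oxidation of tryptophan and lysine, fell to 771.0 ± 221.4 in tumours, against 3065 ± 306 in non-tumour tissue (-1.70 ± 0.24, adjusted p 0.00397). Nnmt and Inmt, methyltransferases that act on nicotinamide and on indole amines, had the deepest falls of this list (-2.81 ± 0.35 and -2.27 ± 0.43, limma, adjusted p 0.00241 and 0.0108). Qprt, which takes quinolinate into NAD synthesis, was at 654 ± 61.6 in tumours and 931 ± 109 in non-tumour tissue and did not pass (-0.19 ± 0.10, adjusted p 0.244). Ido1, the dioxygenase that opens tryptophan outside hepatocytes, was listed on 4 of the 8 arrays, at 2.0 at most, and was not tested. Ido2 was dim in tumours (9.1, 15.5 and 11.5) and in non-tumour tissue (16.7, 15.7 and 21.5), with a small fall (-0.15 ± 0.04, adjusted p 0.0406).

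On a list of amino acid carriers, not all of which take up aromatic ones, 7 genes were tested. Of these 7, 2 rose and 1 fell in tumours, against 12% and 13.4% of all genes. Slc3a2, the heavy chain shared by several amino acid exchangers, rose to 218 ± 33.0, against 157 ± 38.7 in non-tumour tissue (0.52 ± 0.13, adjusted p 0.0284). Slc43a1, a carrier of large neutral amino acids, rose to 37.6 ± 8.58, against 17.8 ± 2.57 (0.39 ± 0.07, adjusted p 0.0106). Slc16a10, a carrier of aromatic amino acids, fell to 16.4 ± 2.95, against 27.2 ± 6.53 (-0.24 ± 0.06, adjusted p 0.0235).

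A list of 36 measured genes that break down other amino acids held 23 that fell and 1 that rose in tumours, against 13.4% lower and 12% higher among all genes tested. Their median log2 difference was -0.54, against -0.01 over all genes. Without non-tumour array 117 the count of falls was 14, and without tumour array 1 it was 15. The deepest were Oat (ornithine, -3.33 ± 0.51, limma, adjusted p 0.00503), Prodh (proline, -2.57 ± 0.34, adjusted p 0.00300), Dmgdh (dimethylglycine, -1.39 ± 0.08, adjusted p 0.000299) and Sardh (sarcosine, -1.15 ± 0.17, adjusted p 0.00473). The gene that passed in the other direction was the alanine aminotransferase gene Gpt2 (0.35 ± 0.09, adjusted p 0.0353), chosen after its value was seen. Its deposited values overlapped, at 377.1, 436.7 and 444 in tumours of mice 117, 186 and 1 against 391.7, 399 and 329.8 in non-tumour tissue. With the blank mean subtracted, median scaling, the deposited values or the local background, limma called 0 genes of this list higher. No test set these lists against the 9 genes.

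**Figure D4:**
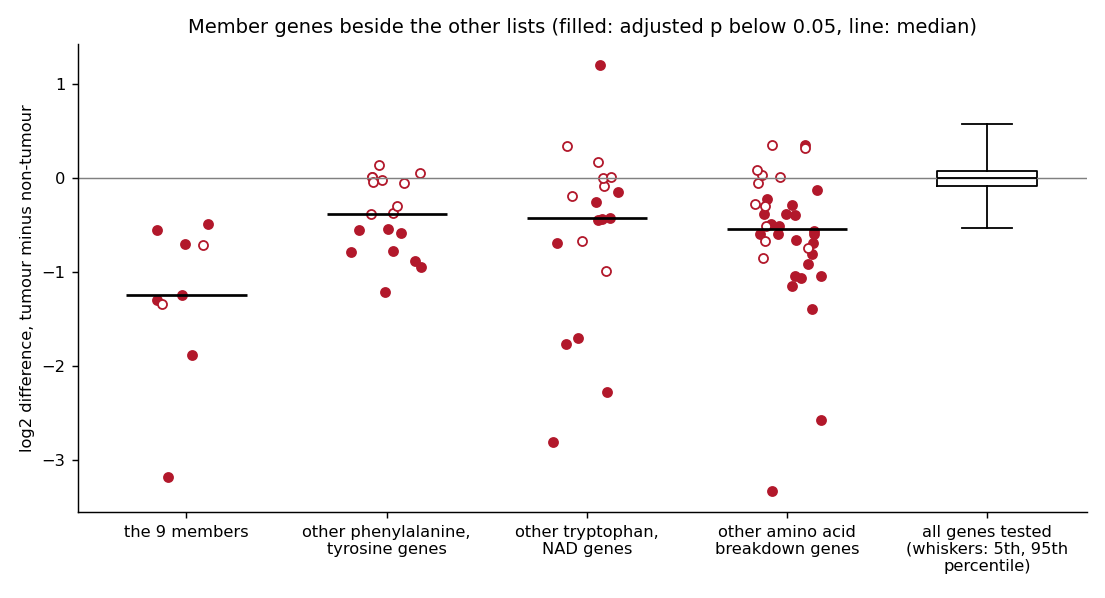
Log2 difference between tumour and non-tumour tissue (vertical axis) of the 9 genes, of the other genes on 3 pathway lists and, as a box with whiskers at the 5th and 95th percentile, of all genes tested. Points are genes, filled where the adjusted p was below 0.05, and black lines are medians. The medians run from -1.24 for the 9 genes to -0.38 for the other phenylalanine and tyrosine genes, and the point above 1 in the tryptophan list is Kyat1.

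Receptors with some of their targets, and hepatocyte transcription factors, were read as 3 lists. Among all genes tested 13.4% fell and 12% rose between tumour and non-tumour tissue. Of 11 measured genes of the glucocorticoid receptor and its liver targets, 3 targets rose and 1 fell in tumours. Those that rose were Igfbp1 (4.59 ± 0.57, limma, adjusted p 0.00241), Mt2 (2.28 ± 0.28) and Mt1 (2.17 ± 0.21). The target that fell was Pck1 (-1.90 ± 0.41, adjusted p 0.0169). Nr3c1, the receptor gene, was not called, at 26.8 ± 6.75 in tumours and 29.5 ± 5.30 in non-tumour tissue (SD, n = 3 each). Of 10 measured hepatocyte transcription factors, 3 fell (Nr1h4, Cebpb and Cebpa, the last by -0.45 ± 0.07, adjusted p 0.00653) and 1 rose, Foxa3 (0.99 ± 0.15, adjusted p 0.00543). Of 7 tested genes of the aryl hydrocarbon receptor, for which kynurenine is a known ligand, and its targets, 2 fell, the receptor gene Ahr (-0.87 ± 0.19, adjusted p 0.0202) and Cyp1a2 (-2.52 ± 0.46, adjusted p 0.0100).

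The gene nearest in pattern to each member was taken as the one with the smallest root mean square difference of centred log2 values over the 8 arrays, among 15330 genes listed on all of them. Nearest to Hpd was Cyp2f2 (0.35 log2 units), a cytochrome P450 gene of periportal hepatocytes, nearest to Tat was Cyp3a44 (0.26), and nearest to Hgd was Suox (0.12), the sulfite oxidase gene. For Tdo2, Kynu and Haao these were Sult1d1 (0.15), Csrp2 (0.10) and Gsta3 (0.09). Those for Fah and Kmo were Mpdz (0.04) and Apip (0.06). For Afmid, the member that fell in non-tumour tissue relative to normal diet liver, it was Aldh1l1 (0.17), a folate enzyme gene. Aldh1l1 fell between the same groups (-0.97 ± 0.18, limma, adjusted p 0.0414), which its choice by likeness to Afmid on these arrays builds in. Among the members themselves the closest pair was Fah and Kmo (0.12), and Hpd and Kmo were the pair farthest apart (1.54).

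Markers of the cells in the tissue moved in both directions. Among all genes tested 13.4% fell and 12% rose between tumour and non-tumour tissue. Of 9 hepatocyte markers, all listed on every array, 4 rose (Fgb, Apoa1, Serpina1c and Trf) and 2 fell (Cps1 and Asgr1) in tumours. Cps1 was at 110.8 ± 53.4 in tumours and 295.3 ± 63.7 in non-tumour tissue, and Asgr1 at 1514 ± 89.8 in tumours and 2934 ± 409 in non-tumour tissue (SD, n = 3 each). The summed intensity of the 9, which is set almost wholly by the bright genes Alb, Ttr, Apoa1, Trf, Serpina1c and Fgb and cannot register Cps1 or Asgr1, was 221024 to 249533 in tumours, 192067 to 208712 in non-tumour tissue and 250139 to 259231 in normal diet livers. Of 10 macrophage markers, which matter here because Kmo and Kynu are also known from macrophages, 3 fell (Clec4f, Cd5l and Vsig4) and 1 rose (Mpeg1) in tumours. The macrophage sum was 1171 to 1599 in tumours, 2350 to 2531 in non-tumour tissue and 1423 to 2177 in normal diet livers, and each of the 10 was listed on all arrays. Of 5 tested dendritic cell markers none rose or fell in tumours. The summed intensity of 7 was 700 to 1752 in tumours, 680 to 941 in non-tumour tissue and 197 to 261 in normal diet livers. That sum is set mostly by H2-Ab1 and Cd74. Of the 7 dendritic cell markers 4 were listed on every array and 1 on no array. Of 6 tested endothelial markers 1 rose, Pecam1, while the sum of 7 was 458 to 707 in tumours, 713 to 784 in non-tumour tissue and 787 to 989 in normal diet livers. Of 7 stellate cell markers 1 rose (Col3a1) and 1 fell (Lrat), with sums of 1023 to 1467 in tumours, 1368 to 1893 in non-tumour tissue and 953 to 1050 in normal diet livers. Of 2 tested red blood cell markers 1 fell, Alas2, and the sum of 3 was 1286 to 3073 in tumours, 2247 to 8720 in non-tumour tissue and 1489 to 1624 in normal diet livers. Sums add probes of unequal response and follow the brightest of them. The part of these cells in the results was not tested.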

How the data were processed

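The scanner files hold spot and local background intensity of 1-colour Cy5 arrays, read at several gains per the file headers. The deposited normalized intensity was recovered on each array (r2 of 1) by subtracting the average blank spot from the spot median and rescaling with a single constant. The authors left probes near the blank level without a value. For the tests, the spot medians of 23473 probes went through normexp correction in limma 3.58.1 (R 4.3.3), where 2736 blank spots served as the negative controls and 50 was added, then through quantile normalization and a log2 transform. Of these probes 20690 had 1 gene symbol and 2783 had none, and per gene the probe with the highest mean deposited intensity was kept (19321 genes). Tests covered the 16800 genes with a value on every array of 1 or more groups.

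Group means of all 8 arrays were fitted (5 residual and 1.49 prior degrees of freedom) and tested 2-sided. Arrays of tumour and non-tumour tissue that carry 1 mouse number share a liver according to the labels, and their deviations from the group means correlated at 0.442, 0.148 and 0.167 (mice 117, 186 and 1). Mouse number entered an alternative as a block. Members, lists and alternatives were chosen with earlier results of these data known. Named beside the 9 members were up to 4 called genes of each list by size of change between tumour and non-tumour tissue, the steps next to the members, and the gene nearest in pattern to each. The fit was checked on simulated data. A log2 change of 0.5 was recovered there in 77.6% of cases between tumour and non-tumour tissue. The share was 64.2% between the diets and 59.7% between tumours and normal diet liver, so a change of this size can be missed. The mice are separate animals, but each high fat diet liver gave both a tumour and a non-tumour array. The reported fit did not pair these arrays. Its p-values set each difference against the spread between these few arrays, and the small number of arrays limits the precision.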

Additional observations from a re-analysis of the deposited data

How the results depend on the processing

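Of 441 repeats of the 27 member differences under other settings, 391 kept their direction or stayed without a call, 37 lost a call, 13 gained one and none turned a called direction. With the local background the members called lower numbered 0 between tumour and non-tumour tissue, 0 between the diets and 1 between tumours and normal diet liver, and genes called lower and higher overall numbered 32 and 97, 3 and 1, and 89 and 134. These compare with 2259 and 2009, 340 and 304, and 2516 and 2163 in the reported fits. Scaling to a common median gave 1084 higher genes between the diets and 4182 lower genes between tumours and normal diet liver, and the share of higher calls was 37.3%, 77.3% and 39.0% in the 3 comparisons (40.3%, 39.5% and 31.3% with the deposited values), against 47.1%, 47.2% and 46.2%. The deposited values moved the median of all genes to -0.11 between the diets and -0.17 between tumours and normal diet liver. The 2 compared groups alone gave 2 members called lower between the diets (380 genes lower and 429 higher overall). Leaving out 1 array gave 5 to 7 members called lower between tumour and non-tumour tissue (1642 to 2104 genes lower and 1476 to 2087 higher overall), 0 to 2 between the diets (48 to 390 genes lower and 47 to 400 higher overall) and 5 to 9 between tumours and normal diet liver (1284 to 2375 lower, 1032 to 2176 higher). With mouse number as a replicate block 6 members fell between tumour and non-tumour tissue, Hpd being the 1 lost, and 1846 genes fell and 1649 rose overall. Where a group was left with 1 array, it was assumed to vary like the others. The repeat with another probe was not run because each member has 1 probe. The cause was not tested in any of these cases.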
